A study of Mus musculus with 77 samples.

Results

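The comparison concerns H3K27ac, the acetylation of lysine 27 on histone H3, in wild type granulocyte-monocyte progenitors (GMP) against wild type pre-granulocyte-monocyte progenitors (preGM) of mouse bone marrow. It covers all 44002 enhancers of the deposited table, so none was left out here by its value. The table itself is the authors' selection: every enhancer has a class of stages that includes GMP or granulocytes, and no class ends at preGM. The comparison rests on 4 of the 77 samples of the series, 2 ChIP-seq libraries of GMP and 2 of preGM. Both progenitors were sorted from fresh marrow without lineage markers or Sca-1, with Kit and without CD150, the preGM also lacking CD105 and the GMP carrying Fc gamma receptors II/III. Wild type LSK cells (multipotent, lineage-negative, Sca-1-positive), preGM from Cebpa knockout (KO) mice and wild type granulocytes (Mac1- and Gr-1-positive) are given beside them, each with 2 H3K27ac libraries. The labels give neither the animals' age nor how or in which cells Cebpa was deleted.

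Enhancers are stretches of DNA, often far from a gene, where transcription factors bind and raise its transcription. Active ones carry H3K27ac, which the acetyltransferases p300 and CBP deposit, whereas H3K4me1 marks active and inactive enhancers alike. preGM give rise to GMP, the last progenitor shared by neutrophils and monocytes, a step that needs the transcription factor CEBPA, and GMP begin to make the proteases and peroxidase of the primary granules of neutrophils.

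Each enhancer had 1 deposited H3K27ac signal per group, in which the 2 libraries are not separated. No replicate error, depth or test was therefore available, and every difference below compares these pooled values. The measure was the log2 ratio of GMP over preGM with 0.7 added to each signal. GMP signal was higher across the table: its median was 1.20 in GMP and 0.908 in preGM, and the median log2 ratio was 0.29. That shift was subtracted, so a log2 ratio of 0 is the ratio of the median enhancer, and an enhancer was counted as higher or lower in GMP when the centred ratio was at least 2-fold. Signal from a sorted population cannot separate more acetylation per cell from more cells that carry it.

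After centring, 1219 enhancers (2.77%) were at least 2-fold higher in GMP and 936 (2.13%) at least 2-fold lower, so 56.6% of those counted were higher. Without centring the split was 4052 higher and 181 lower (95.7% higher), and after quantile normalization of both columns it was 816 higher and 857 lower (48.8% higher). Few ratios were large: 5% of the enhancers lay above 0.86 and 5% below -0.82 (log2), and 4-fold differences were 20 higher and 6 lower. The higher enhancers were assigned to 943 genes and the lower ones to 746, with 62 genes in both groups. The shares of calls differed between signal levels. The enhancers were put in 5 equal groups by mean signal of GMP and preGM. Of the strongest group 8.87% were higher and 0.409% lower, and of the weakest 0% were higher and 1.86% lower. The same GMP and preGM signals make both the groups and the ratio. With the constant added to each signal and the centring, a weak enhancer needs more signal to count as higher than as lower. These shares therefore cannot show whether acetylation changed differently at weak and strong enhancers.

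The largest gains lay at Mpo, which encodes myeloperoxidase, the haem enzyme of primary granules. Of the 10 highest ratios among enhancers whose GMP signal reached the GMP median, 5 belonged to this gene. Its strongest enhancer, at chr11:87608943-87609089 (mm9), had a signal of 43.8 in GMP against 6.44 in preGM. The next, at chr11:87610360-87610695, had 37.9 in GMP against 4.78 in preGM. Both were among the highest acetylation signals of GMP, whose maximum over all enhancers was 44.4. In all, 9 of the 11 Mpo enhancers were 2-fold higher in GMP, the other two had ratios of 0.46 and 0.90, and the 11 stretch over 22.8 kb. The highest ratio of the table, 2.69, was at chr11:87614218-87614367, with 12.3 in GMP and 0.948 in preGM. At the strongest enhancer the signal over the groups was 2.24 in LSK, 5.12 in KO preGM, 6.44 in wild type preGM, 43.8 in GMP and 1.29 in granulocytes. Acetylation there was highest in GMP and lowest in the mature cell.

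Serine proteases of the primary granules followed. Ctsg (cathepsin G) had 5 of 6 enhancers 2-fold higher, led by chr14:56719875-56720409 with 18.5 in GMP against 2.22 in preGM. Its neighbour at chr14:56720767-56721138 had 17.7 in GMP against 3.13 in preGM. Prtn3 (proteinase 3) had 2 of 6 higher, the strongest, at chr10:79344422-79344564, with 10.9 in GMP against 1.63 in preGM. Elane (neutrophil elastase) had 2 of 4 higher, with 7.78 in GMP against 0.762 in preGM at its top ratio of 2.24. Prtn3 and Elane are neighbours on chromosome 10, and the gap between their nearest enhancers was 2.35 kb. At Prtn3 the gain was uneven: the 3 enhancers farthest from Elane had ratios of -0.38 to 0.17, and the 3 nearest to it 0.80 to 2.02.

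**Figure D1:**
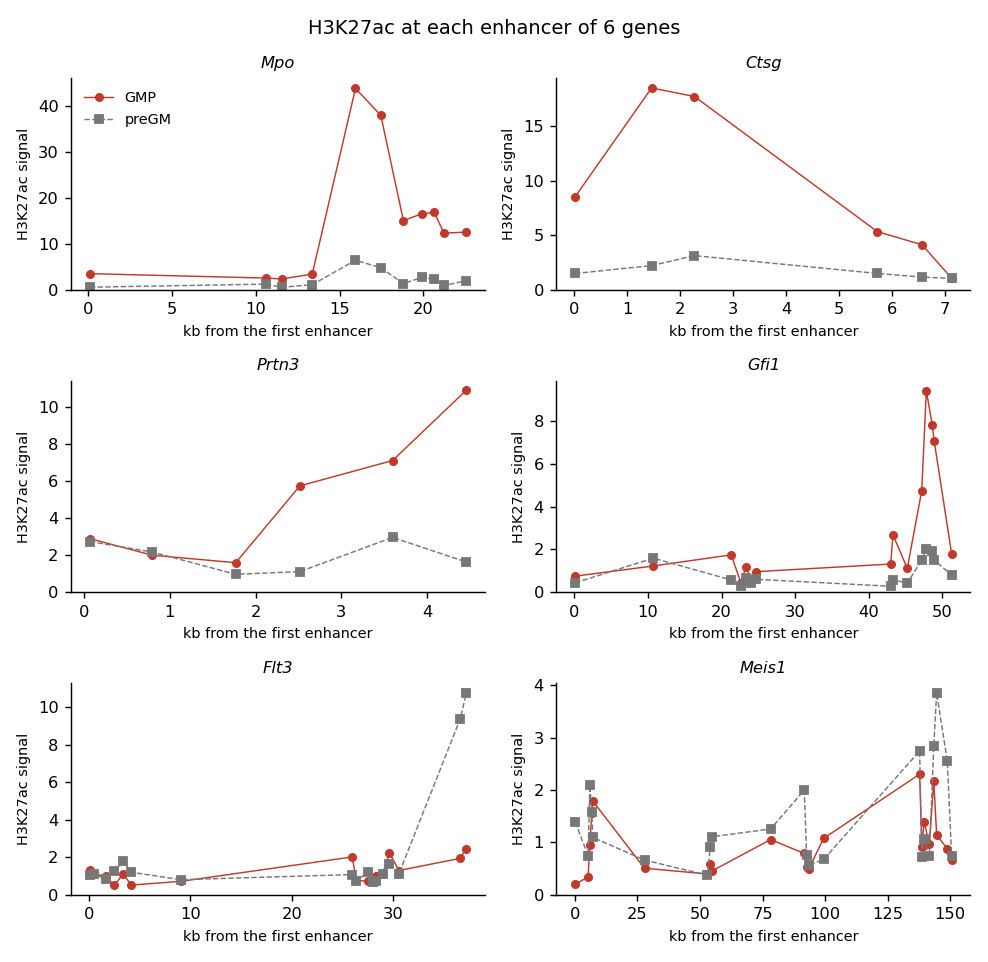
H3K27ac signal (vertical, from 0) at every enhancer assigned to 6 genes, by distance in kb from the first of them (horizontal); red circles are GMP and grey squares preGM, and lines only join neighbours. GMP lies above preGM at 11 of 11 enhancers of Mpo, while at Flt3 the last pair reaches 10.8 in preGM against 2.46 in GMP.

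The promoters of these 4 granule genes are shown because PU.1, a factor of myeloid cells, is among the proteins mapped at these loci. The sequences are the 250 bases before each gene's start (RefSeq, GRCm38.p6), read 5′ to 3′ on the gene's strand. Capitals mark GAGGAA, the core of many PU.1 sites, on either strand; a CEBP-like TTNNGNAA, searched on both strands, was found in none of the 4.
Mpo, chr11:87793534-87793783, plus strand: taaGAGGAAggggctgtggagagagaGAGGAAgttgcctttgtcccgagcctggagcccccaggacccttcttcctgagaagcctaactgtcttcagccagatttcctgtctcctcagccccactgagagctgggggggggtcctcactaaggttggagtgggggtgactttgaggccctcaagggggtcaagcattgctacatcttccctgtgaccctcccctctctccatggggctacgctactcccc
Elane, chr10:79886062-79886311, plus strand: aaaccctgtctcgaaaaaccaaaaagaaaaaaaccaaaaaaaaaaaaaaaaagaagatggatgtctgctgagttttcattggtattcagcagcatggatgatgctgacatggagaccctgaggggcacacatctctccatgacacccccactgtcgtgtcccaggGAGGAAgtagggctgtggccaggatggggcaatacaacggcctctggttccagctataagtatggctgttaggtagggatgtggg
Prtn3, chr10:79879417-79879666, plus strand: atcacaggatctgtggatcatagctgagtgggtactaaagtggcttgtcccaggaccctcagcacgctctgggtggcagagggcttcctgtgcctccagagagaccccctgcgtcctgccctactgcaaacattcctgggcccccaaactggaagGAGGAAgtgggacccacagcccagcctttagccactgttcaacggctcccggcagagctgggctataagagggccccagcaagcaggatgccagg
Ctsg, chr14:56102575-56102824, minus strand: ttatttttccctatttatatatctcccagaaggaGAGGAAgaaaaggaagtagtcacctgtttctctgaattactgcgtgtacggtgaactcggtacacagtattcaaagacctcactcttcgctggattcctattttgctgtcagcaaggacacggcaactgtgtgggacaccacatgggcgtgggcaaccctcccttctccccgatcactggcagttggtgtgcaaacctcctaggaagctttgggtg
Each of the 4 windows holds GAGGAA, 2 copies in Mpo and 1 in the others, against 25.9% of the 27025 genes of the promoter table. Among the strongly concordant genes described below, 16 of the 20 higher ones had a window and 5 of those 16 (31.3%) held it, a share near that of all genes. TTNNGNAA was in 2 of the 16 (12.5%). Its share was 31.5% among the 8074 genes of the enhancer table that had a window, and 40.3% among all genes. The enhancers themselves are in build mm9, for which no genome was used here, so their letters are not shown.

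PU.1 signal at most of these enhancers differed less than acetylation. Its log2 ratio of GMP over preGM, centred in the same way, lay between 0.09 and 0.90 at the 11 Mpo enhancers and between 0.06 and 0.61 at the 6 of Ctsg. At Prtn3 it reached 1.18, with a PU.1 signal of 9.51 in GMP against 4.08 in preGM. At Elane it reached 1.43, with 16.3 in GMP against 5.99 in preGM, at an enhancer whose acetylation ratio was 0.61.

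To describe a gene list, each gene was represented by its strongest enhancer, the one with the highest mean H3K27ac over the 5 groups. By that measure 540 of 10096 genes (5.35%) were 2-fold higher in GMP and 187 (1.85%) 2-fold lower, and the median was 0.26, so list medians are to be read against 0.26 and not 0. Of 11 measured genes for primary granule proteins and their partners 4 were higher, Mpo, Prtn3 (2.02), Ctsg (1.97) and Elane (1.30), and 0 lower, with a median of 0.73. Over all their 62 enhancers 22 were higher and 0 lower. Expression values from the same table are quoted beside some genes. They are the authors' single value per group, without a stated unit or a named set of libraries, are nowhere 0, and carry no error. The median log2 expression ratio of the list was 0.93, against 0.04 over all genes. Mpo had an expression value of 18647 in GMP against 10292 in preGM. Ms4a3, a gene of granulocyte-monocyte progenitors, had the larger expression ratio, 4628 in GMP against 397 in preGM, while its strongest enhancer had a ratio of -0.22, with 0.584 in GMP against 0.518 in preGM. The other of its 2 enhancers was higher, at 1.14.

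Haem is the cofactor of myeloperoxidase. Alas1, the first enzyme of haem synthesis, had 4 of 17 enhancers higher in GMP, led by chr9:106149368-106149540 with 10.7 in GMP against 0.892 in preGM (ratio 2.55). At its strongest enhancer the ratio was 1.19, the 1 call of the list of 7. Its expression value was 2255 in GMP against 629 in preGM. That of Alad, the second enzyme, was 144 in GMP against 579 in preGM, while its strongest enhancer was at -0.01, and the list's median log2 expression ratio was 0.04. The other 6 measured haem synthesis genes were within 2-fold, from -0.03 (Urod) to 0.70 (Fech), and the list's median was 0.24. None of the 5 genes of the phagocyte NADPH oxidase was counted in either direction, with a median of 0.22.

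Genes for folding and export of secreted proteins in the endoplasmic reticulum (ER) were higher in GMP in 2 of 16 cases and lower in 0, with a median of 0.50. Sdf2l1, part of an ER chaperone complex, had a signal of 11.2 in GMP against 1.87 in preGM (ratio 1.91). Xbp1, a transcription factor of the unfolded protein response, carried the highest GMP acetylation of the whole table, 44.4 in GMP against 16.9 in preGM (ratio 1.06, 0.93 after quantile normalization). Of the 11 Xbp1 enhancers 2 were higher, and the median ratio of the 11 was 0.09. Calr, the lectin chaperone calreticulin, had 2 of 5 enhancers higher, the top at chr8:87369094-87369257 with 7.28 in GMP against 0.654 in preGM, and its strongest one at 0.98. Canx (0.70), Manf (0.71) and Ssr1 (0.93) lay under 2-fold. Expression values of these 16 genes had a median log2 ratio of 0.86.

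Enzymes of glucose use were also among the higher genes: 4 of 13 for glycolysis and the pentose phosphate pathway, and 0 lower, with a median of 0.81. They were Hk2 (hexokinase 2, 1.31), Pgam1 (phosphoglycerate mutase, 1.21), Pfkp (platelet-type phosphofructokinase, 1.16) and Taldo1 (transaldolase, 1.02). After quantile normalization all 4 fell short of 2-fold (0.61 to 0.92), and the median over all genes was then 0.01. Without enhancers under 100 bp the ratio of Hk2 was 0.23. Pgam1 had 5 of 8 enhancers higher within chr19:41987283-41992010. Lysosomal genes gave 2 higher of 11, Ctsz (cathepsin Z, 1.67) and Neu1 (neuraminidase 1, 1.01), with 0 lower and a median of 0.65. Ribosome biogenesis genes gave 0 of 11 in either direction with a median of 0.45, and cell cycle and replication genes 3 higher of 26 and 0 lower with a median of 0.47. Those 3 were Ccna2 (cyclin A2, 1.28), Rrm2 (a subunit of ribonucleotide reductase, 1.04) and Ccnd2 (cyclin D2, 1.04), of which Ccnd2 turned to -0.16 and Rrm2 fell short of 2-fold (0.29) when enhancers under 100 bp were left out.

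**Figure D2:**
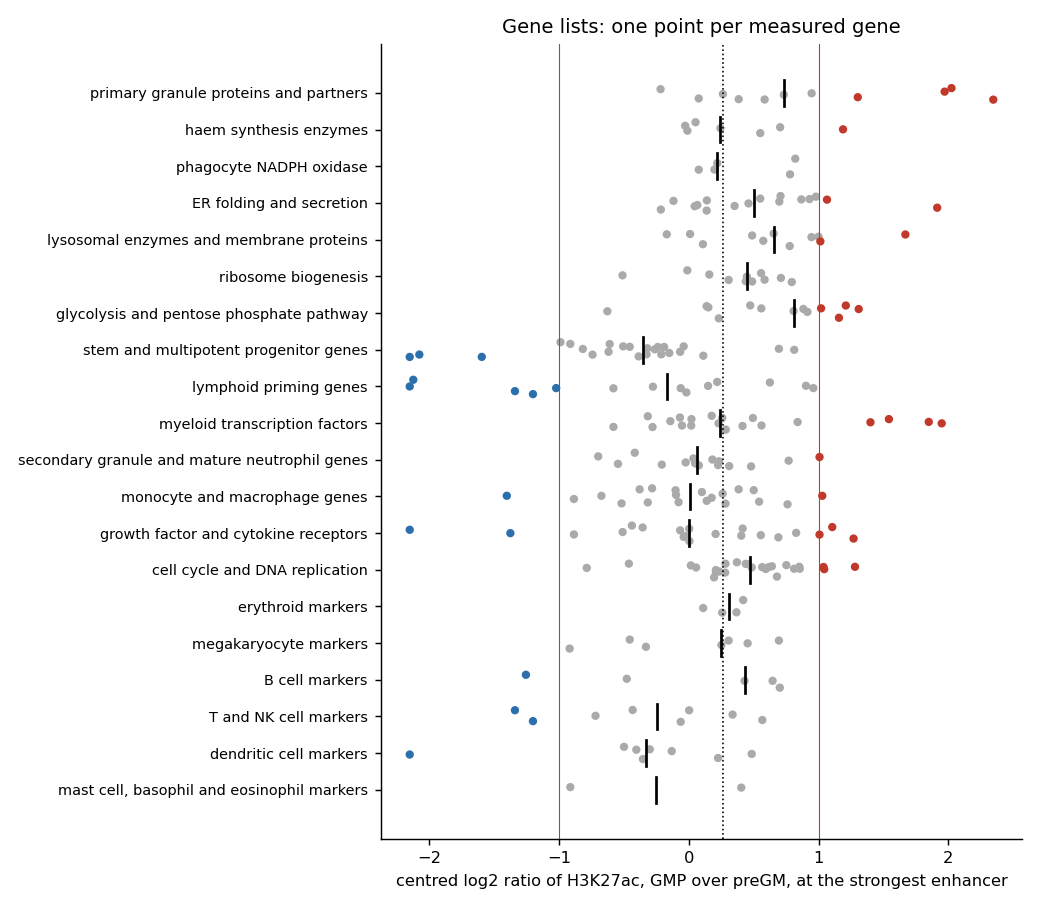
Centred log2 ratio of H3K27ac, GMP over preGM (horizontal), at the strongest enhancer of each measured gene of 20 lists; points beyond the coloured lines are 2-fold higher (red) or lower (blue) in GMP, black bars are list medians, and the dotted line is the median of all genes (0.26). The 3 lowest points of the stem and multipotent progenitor list are Flt3, Cdx2 and Meis1.

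Stem and multipotent progenitor genes went the other way. Of 24 measured, 3 were 2-fold lower in GMP and 0 higher, the median was -0.36, and 3 of the 24 had a ratio above 0. Over their 271 enhancers 25 were lower and 2 higher. Flt3, the receptor for FLT3 ligand on multipotent and lymphoid-primed progenitors, had the lowest ratio (-2.15), with 2.46 in GMP against 10.8 in preGM at chr5:148211887-148211998. The change sat in 2 adjacent enhancers, the second, at chr5:148211113-148211523, having 1.94 in GMP against 9.37 in preGM, and the other 15 lay between -0.99 and 0.32. Along the groups that strongest enhancer measured 7.58 in LSK, 4.27 in KO preGM, 10.8 in wild type preGM, 2.46 in GMP and 0.503 in granulocytes. The expression value of Flt3 was 146 in GMP against 1894 in preGM. Meis1, a homeobox factor of stem cells, had 5 of 22 enhancers lower, the strongest with 1.15 in GMP against 3.85 in preGM (-1.60), and an expression value of 88.6 in GMP against 797 in preGM.

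Cdx2, a caudal-type homeobox gene, was also counted lower in that list. It had 3 of 4 enhancers lower, led by chr5:148152440-148152776 with 0.914 in GMP against 4.86 in preGM (-2.08). Its expression value was near the table's floor in both groups, 18.2 in GMP and 16.1 in preGM. These 3 enhancers lie 58.3 kb from the 2 lower Flt3 enhancers on the same chromosome, and the assignment to Cdx2 is the authors'. Among stem cell genes, some were lower at weaker enhancers. Mecom had 2 of 4 lower with a gene median of -0.95, and Hoxa7 and Hoxa9 had 3 of 9 and 2 of 7. Mycn, a MYC family gene, had 3 of 5 lower and an expression value of 26.1 in GMP against 202 in preGM. In contrast Kit (-0.04), Erg (-0.21), Lmo2 (-0.15) and Tal1 (0.11) were within 2-fold at their strongest enhancers. Acetylation and expression did not move in step for all members: Angpt1 and Hmga2 had 0 enhancers counted while their expression ratios were -3.09 and -2.82.

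Lymphoid priming genes had 5 of 14 strongest enhancers lower and 0 higher, with a median of -0.17. Besides Flt3 the lower genes were Tox (-2.12), Gata3 (-1.34), Tcf7 (-1.20) and Cd7 (-1.02). Over all 158 enhancers of the list 15 were lower (9.49%) and 6 higher (3.80%), against 2.13% and 2.77% of the whole table. Tox, a nuclear factor of developing lymphocytes, had all 4 of its enhancers lower, the strongest with 0.167 in GMP against 2.38 in preGM, and expression values of 11.4 in GMP and 15.2 in preGM, near the floor. Its acetylation in KO preGM, 2.94, was above both. Gata3 and Tcf7, factors of T cell development, are also on the T and NK marker list. Dntt, the template-independent DNA polymerase of early lymphocytes, had the largest expression difference, 41.2 in GMP against 5375 in preGM, with 3 of its 12 enhancers lower and the strongest at -0.28. Ikzf1 (0.90), Notch1 (0.96) and Bcl11a (0.62) were on the higher side without reaching 2-fold.

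Of 20 myeloid transcription factors 4 were higher in GMP and 0 lower, with a median of 0.24. Cebpd, a CEBP family member, had 11.1 in GMP against 1.78 in preGM (1.95) at 1 of its 5 enhancers. Zeb2, a zinc finger repressor, had 5 of 17 enhancers higher, with 18.2 in GMP against 4.59 in preGM (1.54). Gfi1, a repressor needed for neutrophils, also had 5 of 15 higher, 4 of them within chr5:108153615-108155345, with 7.80 in GMP against 1.93 in preGM (1.40) at the strongest. The expression value of Gfi1 was 844 in GMP against 360 in preGM, while that of Zeb2 was 314 in GMP against 380 in preGM. Nfil3, a basic leucine zipper factor, had 6.95 in GMP against 1.03 in preGM (1.85) at its strongest enhancer, but the median over its 12 enhancers was -0.27. Cebpa itself had 1 of 16 enhancers higher (1.19), and its strongest had 14.1 in GMP against 7.48 in preGM (0.56). Sfpi1, the file's name for the PU.1 gene, had 0 of 12, and its strongest was at 0.28. Irf8, a factor of monocytes and dendritic cells, had 1 of 24 higher (1.15), with its strongest enhancer at -0.32. Klf4, a monocyte factor, had 0 of 2 and an expression value of 608 in GMP against 34.1 in preGM.

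Genes of later myeloid stages gave few calls in either direction. Of 16 secondary granule and mature neutrophil genes 1 was higher, Csf3r, the receptor of granulocyte colony-stimulating factor (1.01, with 2.40 in GMP against 0.559 in preGM; -0.12 as the median of its 7 enhancers), and 0 lower, with a median of 0.06. Monocyte and macrophage genes gave 1 higher and 1 lower of 20, with a median of 0.01. The higher was Maf, a leucine zipper factor of macrophages (1.03, but -0.14 as the median of 13 enhancers). The lower was Tgfbi, a secreted matrix protein (-1.40), with 0.742 in GMP against 2.41 in preGM and 4 of 11 enhancers lower, although its expression value was 776 in GMP against 317 in preGM. Of 20 growth factor and cytokine receptors 3 were higher, Ifngr2 (interferon gamma receptor 2, 1.27, or 0.89 without enhancers under 100 bp), Tnfrsf1a (TNF receptor 1, 1.11) and Csf3r, and 2 lower, Flt3 and Il1r2 (a decoy receptor of interleukin 1, -1.38). Their median was 0.00. Quantile normalization took 12 of the listed genes under 2-fold (0.58 to 0.94): Alas1, Xbp1, Neu1, Hk2, Pgam1, Pfkp, Taldo1, Rrm2, Ccnd2, Ifngr2, Tnfrsf1a and Maf. A pseudocount 4 times larger, 2.8, took 17 under it, among them Elane (0.89), Meis1 (-0.89) and Tox (-0.94).

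Counting over all enhancers of a gene gave a stricter view. Of the 4735 genes with at least 3 enhancers, 438 (9.25%) had every enhancer above the median of all enhancers and 402 (8.49%) every one below it, and 82.3% were mixed. The shares dropped with the number of enhancers: 247 of 1129 genes with 3 enhancers had all higher and 199 all lower, against 6 and 14 of 1332 genes with 9 or more. A drop follows from the requirement that every enhancer lie on one side. Adding a gene median of at least 2-fold left 20 strongly concordant genes higher (0.422%) and 8 lower (0.169%). The balance depended on the scaling: it was 98 higher and 1 lower without centring, 8 and 9 after quantile normalization, and 41 and 77 with a pseudocount 4 times smaller. Mpo led the higher ones, with a gene median of 2.05 over its 11 enhancers. Mto1, a mitochondrial tRNA modification enzyme, followed in number with 5 of 9 enhancers higher and a median of 1.24. Ptpn11, the phosphatase SHP2 of growth factor signalling, and Pgam1 each had 5 of 8 higher, with medians of 1.07 and 1.15. The others had 3 to 5 enhancers. Among them were Aprt (adenine phosphoribosyltransferase, 1.73), Zfp324 (1.43), Hn1l (1.31), Anxa3 (annexin A3, 1.22), Plin3 (a lipid droplet protein, 1.19), Pcyox1l (1.19), Ube2q1 (1.13), Ing3 (1.12) and Elane (1.10). The strongest Aprt enhancer had a ratio of 0.31. Its 2 higher enhancers had low preGM signals, 3.09 in GMP against 0.230 in preGM and 4.51 in GMP against 0.393 in preGM. At Anxa3 the expression value was 3796 in GMP against 805 in preGM, the largest expression ratio of the 20 (2.24). The other strongly concordant higher genes were within 2-fold in expression, save Elane (1.40).

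The 8 strongly concordant lower genes were Tox (gene median -1.78), Cdx2 (-1.58), Zbtb2 (-1.22), Rnf122 (-1.21), Zbtb7c (-1.16), Pbxip1 (-1.11), Mycn (-1.05) and Efna5 (-1.02). Of these, Mycn, Rnf122 and Pbxip1 were also more than 2-fold lower in expression, with log2 ratios of -2.95, -1.28 and -1.21. The expression value of Efna5 was low, at 28.0 in GMP and 26.7 in preGM, like those of Tox and Cdx2. In GMP those of Mycn (26.1) and Rnf122 (29.1) were also low, so their ratios rest on low GMP values. The lowest expression value of any gene in GMP was 6.56.

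Across the wider classes the median expression ratios differed little from that of all genes. Genes with all enhancers higher had a median log2 expression ratio of 0.10, and 37 of 438 were 2-fold higher and 13 lower in expression. For genes with all enhancers lower the median was -0.03, with 13 of 402 higher and 53 lower, and over all 10096 genes it was 0.04, with 445 higher and 560 lower. When genes with 2 enhancers were included, the median of those with all enhancers lower turned to 0.0071. By the strongest enhancer, 63 of the 540 higher genes were 2-fold higher in expression and 15 lower, with a median of 0.20. Of the 187 lower genes 1 was higher in expression and 18 lower, with a median of 0.06, which is not below that of all genes. In both classes most genes had an expression ratio within 2-fold.

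Enhancers close together tended to share their call. Where an enhancer was 2-fold higher and the next lay within 1 kb, that next one was also higher in 166 of 556 cases (29.9%) and lower in 0. After a lower one it was lower in 79 of 362 (21.8%) and higher in 0. At gaps of 10 to 100 kb the shares were 4.18% and 3.10%. Neighbours within 1 kb can share fragments of the same library, so these are not independent values. Joined at 1 kb the table held 24994 clusters, of which 1041 had a higher enhancer, 849 a lower one and 3 both. Clusters with at least 3 higher enhancers numbered 24, among them Mapkapk2 (4 of 6), Mpo (4 of 4), Gfi1 (4 of 4), Zeb2 (4 of 7) and Arid3a (3 of 3). Those with at least 3 lower ones numbered 11, among them Zfp36l2 (4 of 4, an RNA-binding protein), Tox (4 of 4), Cdx2 (3 of 3) and Hoxa7 (3 of 9). Zfp36l2 also showed that a gene can hold both: of its 70 enhancers 6 were lower and 1 higher.

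Outside the lists, the top enhancers belonged to few genes. Celsr3, an adhesion receptor gene, had both of its enhancers higher, with 7.61 in GMP against 0.415 in preGM at chr9:108734075-108734251. That enhancer measured 18.8 in granulocytes and had the CEBPA class. Irf2bp2, a corepressor, had 6 of 53 enhancers higher, the top with 6.86 in GMP against 0.510 in preGM at chr8:129226279-129226442, where the PU.1 signal was 1.82 in GMP against 0.653 in preGM. The lower side had Sstr2, a somatostatin receptor gene (-1.91), Srebf1, a regulator of lipid synthesis (-1.90), and D19Ertd386e (-1.83), each by 1 enhancer. The 2 lowest of the named enhancers stood apart in both acetylation and PU.1. At the enhancer assigned to Zfp821 the acetylation signal was 1.87 in GMP and 45.6 in preGM (73.3 in KO preGM), whereas its PU.1 signal was 76.5 in GMP and 5.74 in preGM. Acetylation at the one assigned to Arf6 was 4.72 in GMP and 22.2 in preGM, and its PU.1 signal 63.6 in GMP and 3.89 in preGM. Whether read mapping plays a part in these values was not tested.

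Enhancers higher in GMP also had a higher median in granulocytes than the rest of the table, 3.61 against 1.47. Their median signal was 1.30 in LSK, 1.49 in KO preGM, 1.18 in wild type preGM, 4.77 in GMP and 3.61 in granulocytes. The preGM and GMP values chose the set and carry no evidence of their own, whereas the other groups did not enter the choice. However, 781 of the 1219 lay in the strongest of the 5 equal groups by mean signal of GMP and preGM. Signal level was not matched here, and the LSK and KO preGM medians of the set were also above those of enhancers within 2-fold. GMP had the highest of the 5 values at 824 of the 1219 enhancers (67.6%) and granulocytes at the other 395 (32.4%). Over all enhancers these shares were 28.3% and 46.7%. The lower enhancers had medians of 0.905 in LSK, 0.801 in KO preGM, 1.34 in wild type preGM, 0.415 in GMP and 0.812 in granulocytes. Wild type preGM had the highest value at 509 of the 936 (54.4%), granulocytes at 255 (27.2%), KO preGM at 89 (9.51%) and LSK at 83 (8.87%). Over all enhancers the shares were 7.26%, 46.7%, 8.92% and 8.85% in the same order. Enhancers within 2-fold had medians of 0.930 in LSK, 0.914 in KO preGM and 1.47 in granulocytes. A high preGM value helps an enhancer into the lower set, so the rank of preGM is fixed in part by the choice.

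**Figure D3:**
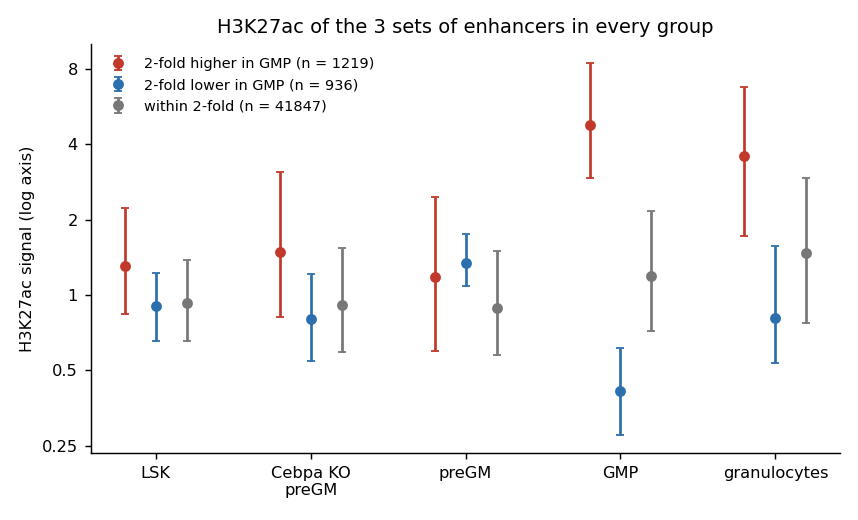
Median H3K27ac signal (log axis) in each of the 5 groups for enhancers 2-fold higher in GMP (red, 1219), 2-fold lower (blue, 936) and within 2-fold (grey, 41847); bars span the quartiles over enhancers and are not replicate error. The red set has a median of 4.77 in GMP and 3.61 in granulocytes, against 1.18 in preGM.

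Fewer enhancers passed 2-fold in H3K4me1 and PU.1. By the same rule, with their own pseudocounts, 90 enhancers were 2-fold higher in H3K4me1 (0.205%) and 7 lower (0.0159%). For PU.1 441 were higher (1.0%) and 236 lower (0.536%). Enhancers with higher H3K27ac had a median H3K4me1 ratio of 0.03 and 20 of them were 2-fold higher in that mark, against a median of -0.10 and 2 lower among those with lower H3K27ac. With an H3K27ac pseudocount of 2.8 both medians turned, to -0.092 at the higher and 0.076 at the lower enhancers. The median PU.1 ratio was 0.14 at the higher and -0.10 at the lower enhancers, against 0.00 at the rest. Of the higher ones 51 of 1219 were 2-fold higher in PU.1 and 0 lower, and of the lower ones 17 of 936 were lower and 7 higher. At the 2 strongest Mpo enhancers H3K4me1 was on the lower side without reaching 2-fold, with 2.03 in GMP against 4.07 in preGM at the first and 3.41 in GMP against 5.08 in preGM at the second.

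The authors' classes of bound factors divided the calls. Enhancers in the class of PU.1 and CEBPA were higher in 5.11% and lower in 0.765%, those of CEBPA alone higher in 4.89% and lower in 1.09%, those of PU.1 alone higher in 3.16% and lower in 1.97%, and those of neither higher in 1.85% and lower in 2.60%. Classes with CEBPA held 38.6% of the higher and 9.62% of the lower enhancers, against 21.5% of all. Because calls depend on the signal, the same shares were taken within the 5 groups of mean signal. In the strongest group CEBPA-alone enhancers were higher in 12.8%, PU.1-and-CEBPA ones in 8.94%, PU.1-alone ones in 8.09% and unbound ones in 8.34%. In the next group the shares were 7.86%, 5.94%, 1.07% and 3.14% in the same order. With enhancers in 5 equal groups by CEBPA signal in wild type preGM, 1.93% of the lowest group and 4.35% of the highest were higher in GMP. Neither the criterion behind these classes nor the stage of the binding calls is stated in the sources used.

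**Figure D4:**
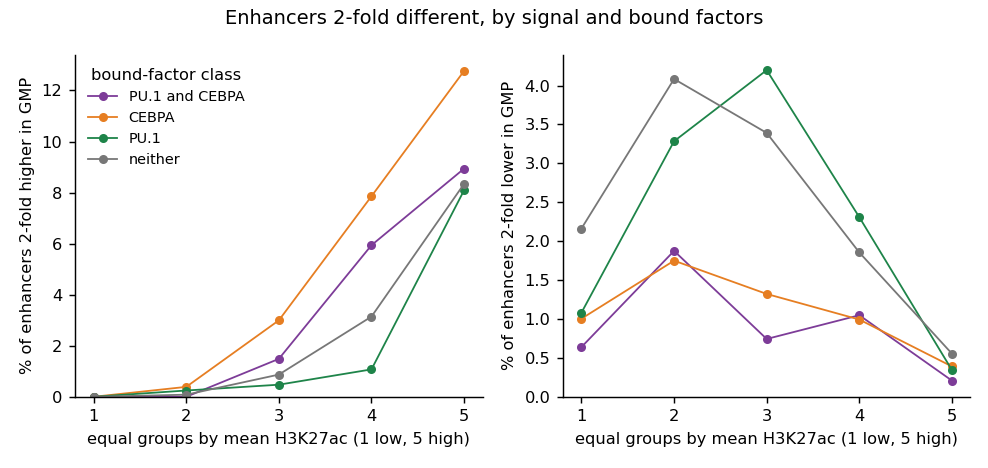
Percentage of enhancers 2-fold higher (left) and 2-fold lower (right) in GMP, by group of mean H3K27ac (5 equal groups, 1 weakest, 5 strongest) and by the authors' class of bound factors. In the strongest group 12.8% of CEBPA-alone enhancers were higher, against 8.34% of those with neither factor.

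The authors also gave each enhancer a class of stages, likewise without a stated criterion. Every class includes GMP or granulocytes, so enhancers present only up to preGM have no class here. The lower enhancers are therefore no full count of losses from preGM to GMP. How this selection bears on the balance of higher and lower was not tested. Enhancers of the class GMP and granulocytes were higher in 5.02% and lower in 0.997%. The class LSK, preGM and GMP had the opposite balance, with 1.92% higher and 3.92% lower, as did the class preGM and GMP, with 1.63% higher and 2.79% lower. That last class held 38.1% of all lower enhancers and 29.1% of the table.

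The sort could be compared with acetylation at its own marker genes. Kit, required in both sorts, had 8.51 in GMP against 7.03 in preGM (-0.04) at its strongest enhancer and expression values of 841 in GMP and 912 in preGM. Fcgr3 and Fcgr2b, genes of the Fc gamma receptors that define GMP, had expression values of 1262 and 911 in GMP against 84.2 and 266 in preGM. At their 10 and 11 enhancers 0 were 2-fold different, with gene medians of 0.31 and 0.47. The strongest enhancer of Fcgr3 had a ratio of -0.51, with 1.18 in GMP against 1.49 in preGM. That of Fcgr2b was at 0.62, with 1.92 in GMP against 0.684 in preGM. Cd34, a progenitor surface protein, had 1 of 9 enhancers lower and an expression value of 603 in GMP against 3362 in preGM.

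Markers of other cells gave few calls. Their summed signals below are not centred, and over the whole table the sum was 102610 in GMP against 64743 in preGM. The strongest enhancers of 4 erythroid and 7 megakaryocyte genes gave 0 higher and 0 lower, with medians of 0.31 and 0.25 and summed signals of 20.2 and 18.0 in GMP against 12.7 and 11.99 in preGM. Of 5 B cell genes 1 was lower, Pax5 (-1.26, but 0.31 when enhancers under 100 bp were left out), and the sum was 17.6 in GMP against 9.71 in preGM. Of 8 T and NK genes Gata3 and Tcf7 were lower, and the sum was 20.7 in GMP against 16.2 in preGM. Of 8 dendritic cell genes Flt3 was lower, with a sum of 15.2 in GMP against 20.3 in preGM. The 2 measured mast cell, basophil and eosinophil genes gave 0 calls and sums of 6.19 in GMP and 6.29 in preGM. The part of other cells in the sorted populations in the differences above was not tested.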

How the data were processed

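ChIP-seq and RNA-seq were run on sorted mouse bone marrow cells. The submitters' processing notes name Bowtie2, MACS2, bedtools, STAR, featureCounts and DESeq2, without versions, and build mm9. The labels' protocols state that bacterial carrier DNA was added before amplification, in an amount set by the yield; its effect on scaling was not tested. The deposited table gives 1 signal per enhancer and group. The sources used here do not state how the authors pooled, scaled or normalised it, and the depth and so the precision are unknown. Its values are not whole, never negative and were read as linear. Columns were matched to groups by name. Of 32 value columns 17 were used (H3K27ac, H3K4me1, PU.1, CEBPA and 2 of expression) and 15 not.

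Ratios, centring and counts were computed with Python 3.11.15, numpy 2.4.6 and pandas 2.3.3. Pseudocounts were the 25th percentile of each assay's values rounded to 1 significant digit: 0.7 for H3K27ac, 2 for H3K4me1 and 0.6 for PU.1. The log2 shifts subtracted were 0.29, 0.21 and -0.07. Steps were tested on simulated data. Genes are the authors' assignment. The members, the 20 lists (297 symbols, 233 measured, 3 through a synonym) and the rules for naming genes were chosen with earlier results of these data known. Named are the 10 highest and 10 lowest ratios among 2-fold enhancers whose signal in the higher group reached that group's median, the strongly concordant genes, at most 4 and 2 members a list in its main and other direction, and 10 fixed genes; other genes named within a list, beside a small count or for their expression were chosen after their values were seen. Promoters matched 8074 of 10096 genes.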

Additional observations from a re-analysis of the deposited data

How the results depend on the processing

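The table pools the 2 libraries of each group, so none could be left out. No paired analysis was possible because the table holds 1 value per group. Of 211 recomputed values, 122 moved by less than 1.5 times, or within a 95% binomial interval for shares; the others follow, and the cause was not tested. With a pseudocount 4 times smaller, 2827 enhancers were higher and 4339 lower, 41 and 77 genes were strongly concordant, classes with CEBPA held 34.4% and 13.2%, granulocyte signal at higher enhancers was 2.13, H3K4me1 there 0.078, and 1 ER and 7 stem genes were counted. With 2.8 these were 222 and 6 enhancers, 3 and 0 genes, 35.1% and 33.3%, and 6.51; H3K4me1 turned to -0.092 at higher and 0.076 at lower enhancers, PU.1 at lower was -0.21, and 1 lymphoid gene was lower. With 0.6, 14 genes were strongly lower. Without centring 4052 and 181 enhancers, 98 and 1 strongly concordant genes, 1134 and 93 genes with all enhancers on one side and 33.4% in CEBPA classes were found, with H3K4me1 and PU.1 at higher enhancers of 0.018 and 0.089, expression medians of 0.058 and -0.067, and 6 ER and 3 lymphoid genes. Quantile normalization gave 8 strongly higher and 9 strongly lower genes, 43.0% and 13.8%, granulocyte signal of 2.35, H3K4me1 of 0.16, PU.1 of 0.23, expression of -0.077 for genes with all lower, 1 ER and 5 stem genes. A filter on low values gave 32 strongly higher genes, 189 with all lower and -0.12 in their expression. Widths of at least 100 bp gave 13 and 5 strong genes, -0.022 in expression, turned Ccnd2 to -0.16 and Pax5 to 0.31, and took Hk2 (0.23), Rrm2 (0.29) and Ifngr2 (0.89) under 2-fold. At 1.5-fold 6044 and 5515 enhancers were counted, with 31.8% and 14.0%, PU.1 of 0.073, 7 ER and 9 stem genes. At 3-fold it was 84 and 29, with 45.2% and 17.2%, H3K4me1 of -0.17 at lower enhancers, PU.1 of 0.38 and -0.27, 1 ER and 2 lymphoid genes. From 2 enhancers a gene, 49 and 22 genes were strong and 1193 and 897 all on one side, and expression of the lower turned to 0.0071. From 5 it was 5 and 1, 90 and 110, and expression of 0.17 and -0.075. GAGGAA was then in 100% of the strong higher genes that had a promoter window, which not all 5 had. With 80% of enhancers on one side 681 and 710 genes were counted and expression was -0.057. Summed signals gave 60 and 45 strong genes. Taking a gene's median enhancer left 1 ER and 1 lymphoid gene and turned Ccnd2 (-0.10), Csf3r (-0.12), Maf (-0.14) and Nfil3 (-0.27). Pseudocounts of the other assays 4 times larger gave H3K4me1 of 0.018 and -0.047 and PU.1 of 0.077 and -0.052. The 36 genes named in lists include Cebpa, Sfpi1 and Irf8, which were within 2-fold from the start and so could not fall under it. Of the 36, 25 fell under 2-fold or turned with the gene median, 17 with a pseudocount of 2.8 and 12 after quantile normalization.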
